A study of Homo sapiens with 6 samples.

Results

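MHC class II presentation genes were measured in LP-1, an established human multiple myeloma line, on 6 expression arrays. The set held 10 genes: the class II chain genes HLA-DRA, HLA-DRB1, HLA-DQA1, HLA-DQB1, HLA-DPA1 and HLA-DPB1, the peptide-loading genes HLA-DMA and HLA-DOA, the invariant chain gene CD74 and the transactivator gene CIITA. Each gene was taken by its symbol, and each had 1 probe set (a group of probes summarised into 1 value) among 33616 gene symbols of the deposited table. All 10 passed the filter on low values, which kept 21070 genes whose mean over the 6 arrays was no lower than 3.77, the median over every probe set. None of the 10 passed it through 1 group alone, since every group mean of every one of them was above that median.

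The arrays fell into 3 groups of 2, labelled biological replicates. Long-term acid culture (L.A., written LA here) was at an extracellular pH of 6.8 and carried a time label of 9 months. Short-term acid culture (S.A., written SA) was at the same pH of 6.8 and carried a time label of 2 weeks. Control culture (Ctrl) was at pH 7.4, also with a time label of 9 months. The labels are not uniform on time: the sample descriptions give 8 to 10 weeks for LA and 2 to 3 weeks for SA, whereas the design text gives 8 to 10 months for LA and 2 to 4 weeks for SA. All groups shared the same cell line, serum and bicarbonate content, and nothing states whether the replicates of a group were adapted separately, so the p-values measure the spread between these arrays of 1 cell line. LA and Ctrl share a time label and differ in pH, LA and SA share a pH and differ in time, and SA and Ctrl differ in both.

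MHC class II molecules are heterodimers of an alpha and a beta chain that carry peptides from the endosomal pathway to the surface, where CD4+ T cells read them. The invariant chain, encoded by CD74, fills the groove of new dimers and guides them to endosomes, and HLA-DM then exchanges its remnant for peptide while HLA-DO restrains HLA-DM. Transcription of these genes depends on CIITA, a coactivator that does not bind DNA itself and docks onto factors on a shared promoter module, in which RFX binds the X box and NF-Y the Y box. In normal B cell development, class II transcription is lost on the way to the plasma cell, the cell from which myeloma arises, while myeloma lines vary in how much they keep.

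The promoter module can be looked for in the reference sequence, and the windows below show the arrangement that HLA-DRB1, HLA-DQA1, HLA-DQB1, HLA-DMA and HLA-DOA have in common. The RefSeq promoter table of assembly GRCh38.p14 held 8 of the 10 genes in 9 entries, with 2 for HLA-DPA1; HLA-DRA and CIITA had no entry. X letters were searched as AGNNAC, a pattern shared by the 5 windows shown, and Y letters as ATTGG, the reverse complement of CCAAT. Both strands of the 250 bases before each gene start were searched. A pair was counted where the Y letters followed the X letters on 1 strand by at most 30 bases. Each of the 5 windows shown is the 150 bases before the gene start, 5′ to 3′ on the gene's strand, with the X and the Y letters of the pair in capitals. The windows lie on chromosome 6 at chr6:32589849-32589998 (minus strand) for HLA-DRB1, chr6:32637256-32637405 (plus strand) for HLA-DQA1, chr6:32666658-32666807 (minus strand) for HLA-DQB1, chr6:32953098-32953247 (minus strand) for HLA-DMA and chr6:33009592-33009741 (minus strand) for HLA-DOA.
HLA-DRB1: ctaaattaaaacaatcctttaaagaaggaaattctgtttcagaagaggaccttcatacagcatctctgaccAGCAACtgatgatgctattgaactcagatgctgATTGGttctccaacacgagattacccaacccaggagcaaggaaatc
HLA-DQA1: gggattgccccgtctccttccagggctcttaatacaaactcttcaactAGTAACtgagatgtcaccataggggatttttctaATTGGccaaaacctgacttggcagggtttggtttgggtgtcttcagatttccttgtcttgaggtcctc
HLA-DQB1: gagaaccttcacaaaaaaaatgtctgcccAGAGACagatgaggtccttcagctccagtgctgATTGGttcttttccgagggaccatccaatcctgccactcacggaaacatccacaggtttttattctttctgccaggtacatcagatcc
HLA-DMA: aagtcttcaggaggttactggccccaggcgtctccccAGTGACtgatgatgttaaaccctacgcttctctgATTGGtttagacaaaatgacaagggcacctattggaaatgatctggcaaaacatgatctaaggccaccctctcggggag
HLA-DOA: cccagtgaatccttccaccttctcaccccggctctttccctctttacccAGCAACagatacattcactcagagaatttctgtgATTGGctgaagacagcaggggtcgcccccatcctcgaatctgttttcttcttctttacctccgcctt

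The pair stood in 5 of the 9 entries, against 4.25% of all 35116 promoter windows (1493 windows). The X letters alone, being short, stood in 9 of 9 entries and in 80.8% of all windows, and the Y letters alone in 7 of 9 entries and in 32.0% of all windows. In the 5 genes the X letters began 79 (HLA-DRB1), 121 (HLA-DQB1), 102 (HLA-DQA1), 113 (HLA-DMA) and 101 (HLA-DOA) bases before the gene start, and the gap to the Y letters was 27 or 28 bases in each. HLA-DOA, the gene with the largest difference between LA and Ctrl, carried the same arrangement as HLA-DRB1, HLA-DQA1, HLA-DQB1 and HLA-DMA. Both HLA-DPA1 entries had X letters without Y letters, and HLA-DPB1 and CD74 had both without such a pair. In HLA-DPB1 the X letters stood on the other strand only. An X box with other letters would have been missed, so a missing pair does not show that the module is absent. The letters were chosen after the promoters of these genes had been read, they are the reference alleles and not those of LP-1, and a match is a description of the sequence and not a bound site.

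Levels are the authors' RMA values, taken to be on a log2 scale, so that a difference of 1 is a 2-fold change; values of different probe sets are not compared with each other as levels. Errors after ± are standard errors of limma differences. They and the p-values tend to be too small, because the deposited values hold almost no difference between replicate numbers, and counts from a fit with replicate number as a block are therefore given too. A gene was called where its p-value, adjusted by Benjamini-Hochberg over all 21070 genes, was under 0.05.

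Most class II presentation genes were lower in LA than in Ctrl cells. Of the 10, 9 were called lower, and HLA-DRA, the gene of the DR alpha chain, was lower by 0.90 ± 0.17 (SE) without being called (limma adjusted p = 0.0542). Over all genes tested, 1.59% were called lower in this comparison. With replicate number as a block, 8 of the 10 were called lower, against 0.555% of all genes, and CIITA lost its call (limma adjusted p = 0.0992). The LA arrays lay below the Ctrl arrays without overlap for all 10 genes, against 28.1% of all genes. The median difference of the 10 was -2.32, beside -0.03 over all genes. In bulk RNA, fewer cells with a high level and less RNA in each cell cannot be told apart. In SA cells, by contrast, 1 of the 10 was called against Ctrl, HLA-DOA, where 8.55% of all genes were called lower (3.49% with the block), and the median difference of the 10 was -0.39, beside -0.04 over all genes. The SA arrays lay below the Ctrl arrays without overlap for 5 of the 10, against 32.3% of all genes. The number called in LA against Ctrl was 5 when every probe set that passed the filter, named or not, entered the adjustment. Of those 67787 probe sets, 77 were called lower.

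**Figure D1:**
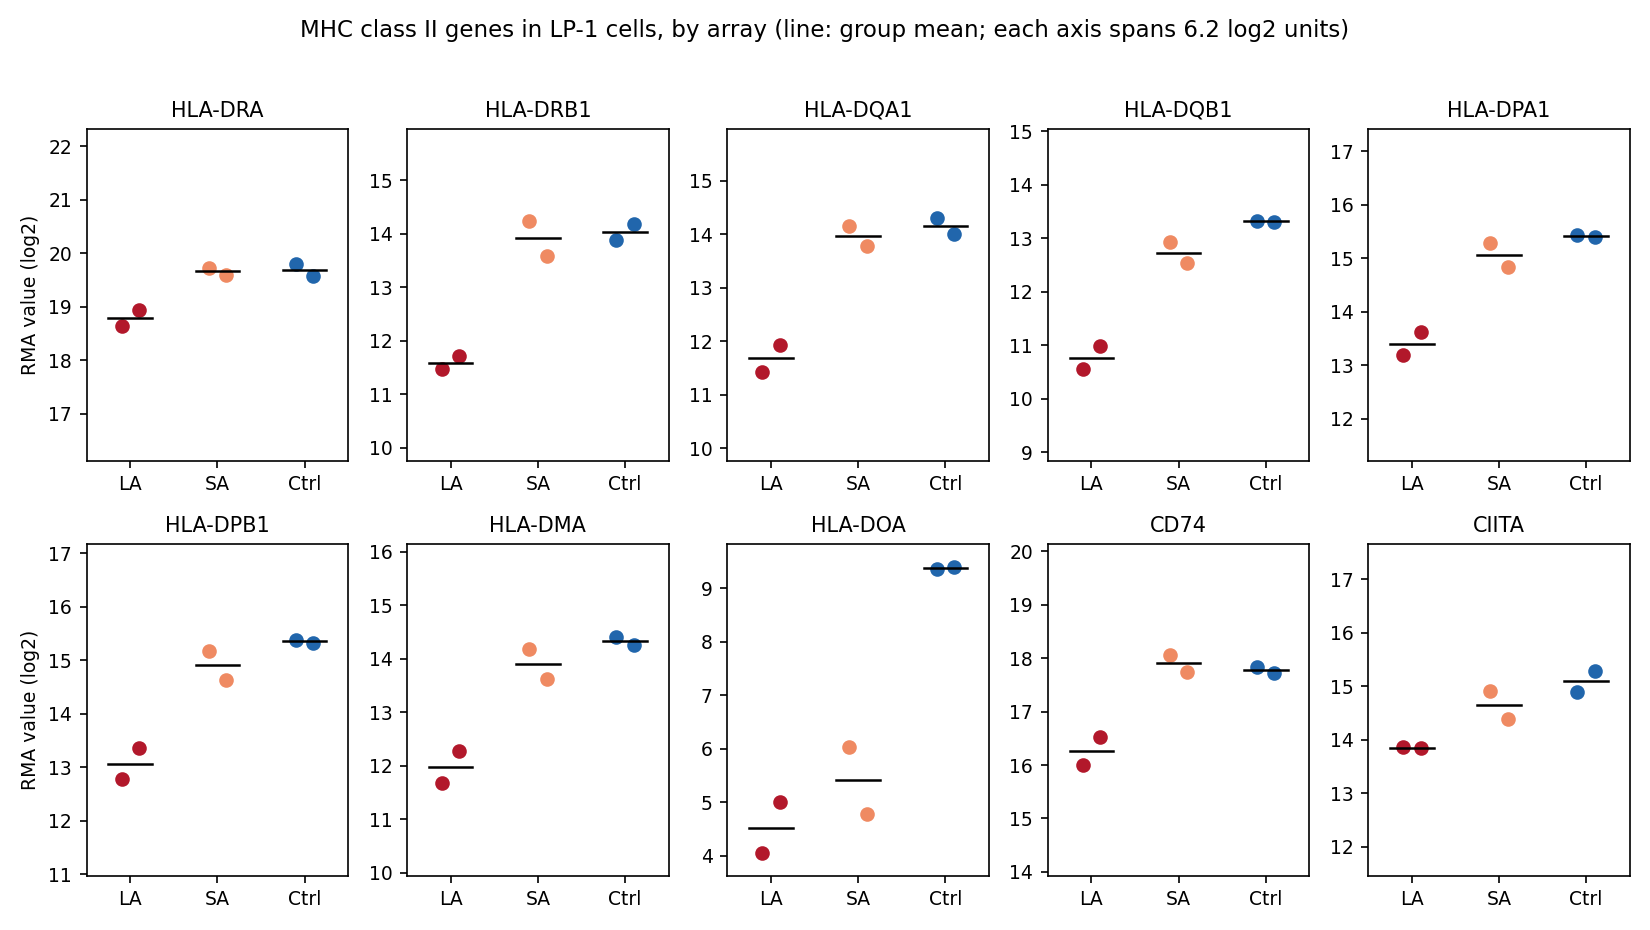
Level of each of the 10 class II presentation genes on each array (vertical axis, RMA value taken as log2), with LA arrays left of SA arrays and Ctrl arrays rightmost; points are arrays and bars are group means. For all 10 genes both LA points lie below both Ctrl points, and for HLA-DOA the SA points, 6.04 and 4.78, also lie far below the Ctrl points, 9.36 and 9.40.

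All 6 antigen-binding chain genes had lower values in LA than in Ctrl cells, and 5 of them, without HLA-DRA, were called. HLA-DRB1, the gene of the polymorphic DR beta chain, had values of 11.46 and 11.72 in LA, 14.25 and 13.58 in SA, and 13.87 and 14.18 in Ctrl cells. Both LA arrays were low, and the SA arrays lay on either side of the Ctrl arrays. The difference between LA and Ctrl was -2.44 ± 0.26, a 5.42-fold lower level (limma adjusted p = 0.0107). That between LA and SA was -2.32 ± 0.26 (limma adjusted p = 0.00382). HLA-DRA, its invariable partner chain, had 18.63 and 18.94 in LA, 19.72 and 19.60 in SA, and 19.81 and 19.58 in Ctrl cells. Both LA arrays were below the other 4, and the difference from Ctrl was the smallest of the 10. Its highest array value lay 0.21 below the highest value of the whole table, 20.02, and whether the probe set was near the top of its range was not tested. HLA-DRA was called lower in LA than in SA (-0.87 ± 0.17, limma adjusted p = 0.0225), a call lost with the block (limma adjusted p = 0.0725) and without LA replicate 1, SA replicate 1 or SA replicate 2 (adjusted p = 0.122, 0.0816 and 0.057). Over its alternatives the adjusted p of that difference ran from 0.00966 to 0.122.

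HLA-DQA1 and HLA-DQB1, the genes of the DQ alpha and beta chains, were low in the same arrays. HLA-DQA1 had 11.42 and 11.94 in LA, 14.16 and 13.79 in SA, and 14.31 and 14.00 in Ctrl cells, with the LA arrays low and the SA and Ctrl arrays overlapping. Its difference between LA and Ctrl was -2.47 ± 0.24, or 5.55-fold lower (limma adjusted p = 0.00800). HLA-DQB1 had 10.55 and 10.99 in LA, 12.93 and 12.54 in SA, and 13.33 and 13.31 in Ctrl cells. Here the 3 groups did not overlap and stood in the order LA, SA, Ctrl from low to high. The difference between LA and Ctrl was -2.55 ± 0.21, or 5.85-fold lower (limma adjusted p = 0.00640), the largest of the chain genes in this comparison. The difference of HLA-DQB1 between SA and Ctrl, -0.59 ± 0.21, had a 95% interval of -1.10 to -0.07 and was not called (limma adjusted p = 0.124).

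The DP chain genes HLA-DPA1 and HLA-DPB1, which lie side by side, followed the same order. HLA-DPA1 had 13.20 and 13.62 in LA, 15.29 and 14.83 in SA, and 15.44 and 15.39 in Ctrl cells. HLA-DPB1 had 12.77 and 13.37 in LA, 15.18 and 14.64 in SA, and 15.38 and 15.33 in Ctrl cells. For both genes the LA arrays lay more than 1 below every other array and the SA arrays lay just under the Ctrl arrays. HLA-DPA1 was 4.02-fold lower in LA than in Ctrl (-2.01 ± 0.22, limma adjusted p = 0.0120), and HLA-DPB1 was 4.87-fold lower (-2.28 ± 0.26, limma adjusted p = 0.0138). Neither was called in SA against Ctrl, where the 95% intervals were -0.90 to 0.18 for HLA-DPA1 and -1.09 to 0.20 for HLA-DPB1.

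The genes that act on peptide loading split. HLA-DMA, one chain of the peptide exchange factor HLA-DM, had 11.68 and 12.27 in LA, 14.19 and 13.62 in SA, and 14.41 and 14.25 in Ctrl cells. Its LA arrays were low and its SA arrays just under the Ctrl arrays, with a difference between LA and Ctrl of -2.35 ± 0.27, or 5.11-fold lower (limma adjusted p = 0.0138). HLA-DOA, the alpha chain of the HLA-DM inhibitor HLA-DO, had 4.05 and 5.00 in LA, 6.04 and 4.78 in SA, and 9.36 and 9.40 in Ctrl cells. All 4 acid arrays were far below both Ctrl arrays, and the LA and SA arrays overlapped. HLA-DOA was 29.0-fold lower in LA (-4.86 ± 0.47, limma adjusted p = 0.00800) and 15.7-fold lower in SA (-3.97 ± 0.47, limma adjusted p = 0.00637), each against Ctrl. The fold in SA was 24.3 without SA replicate 1 and 10.1 without SA replicate 2. By the size of the difference it ranked 3 among the falls of all genes in LA and 7 in SA. The LA arrays approach 3.77, the median over every probe set, and no detection calls were given. These folds therefore hold only as far as the low values are measured levels. The difference between LA and SA was -0.89 ± 0.47 (95% interval -2.04 to 0.26, limma adjusted p = 0.267).

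CD74, the invariant chain gene and also a surface receptor for the cytokine MIF, had 16.00 and 16.52 in LA, 18.06 and 17.74 in SA, and 17.84 and 17.72 in Ctrl cells. The LA arrays were low, and the SA and Ctrl arrays overlapped. The difference was -1.51 ± 0.22 between LA and Ctrl, or 2.86-fold lower (limma adjusted p = 0.0256), and -1.64 ± 0.22 between LA and SA (limma adjusted p = 0.00667). The call against Ctrl was lost without LA replicate 1, Ctrl replicate 1 or Ctrl replicate 2 (adjusted p = 0.0992, 0.0893 and 0.0699), and its adjusted p over the alternatives ran from 0.0163 to 0.0992. CIITA, the master coactivator, had 13.86 and 13.84 in LA, 14.91 and 14.39 in SA, and 14.90 and 15.28 in Ctrl cells. Both LA arrays were the lowest, and an SA array stood level with a Ctrl array. Its difference between LA and Ctrl was -1.24 ± 0.22, or 2.36-fold lower (limma adjusted p = 0.0469). That call was lost without any 1 of the 4 arrays, at adjusted p between 0.0778 and 0.170, and over its alternatives the adjusted p ran from 0.0238 to 0.170. Between LA and SA the difference of CIITA was -0.80 ± 0.22 and was not called (limma adjusted p = 0.0640).

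**Figure D2:**
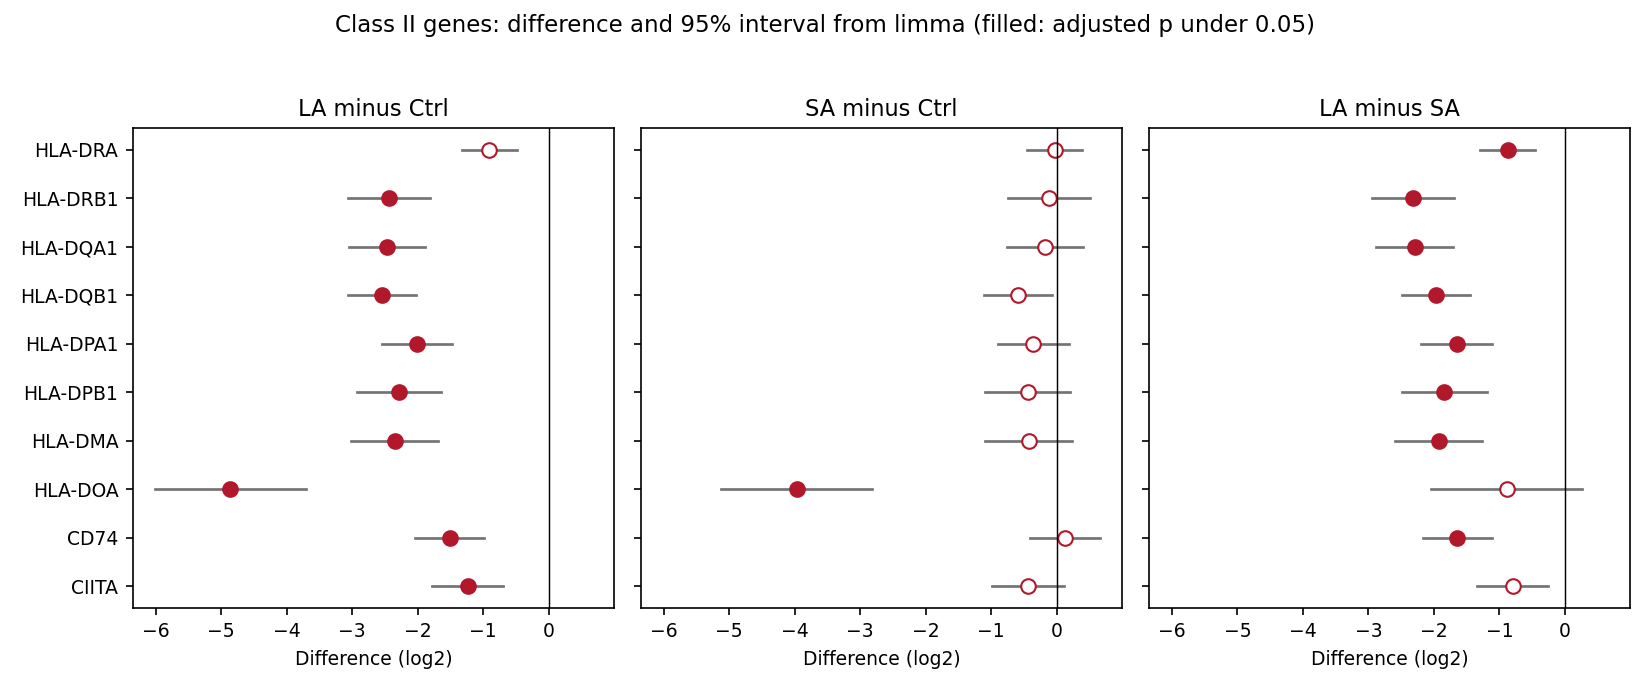
Differences of the 10 genes on the log2 scale for LA minus Ctrl, SA minus Ctrl and LA minus SA, with 95% intervals from limma. In LA minus Ctrl all 10 intervals lie below 0, in SA minus Ctrl 2 do, and in LA minus SA 9 do. The exception in LA minus SA is HLA-DOA. An interval that leaves out 0 matches an unadjusted limma p under 0.05. Such a p was found in LA minus Ctrl for 4224 of all 21070 genes, in either direction. The number was 6492 in SA minus Ctrl and 6474 in LA minus SA.

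Leaving HLA-DOA aside, differences between LA and Ctrl of the other 9 genes ran from -2.55 to -0.90 with a median of -2.28, and those between SA and Ctrl from -0.59 to 0.12 with a median of -0.36. The 95% intervals of these 9 SA differences began at -0.41 (CD74) to -1.10 (HLA-DQB1). Without SA replicate 1 the median over all 10 genes in SA against Ctrl was -0.64, and without SA replicate 2 it was -0.13. Both comparisons share the Ctrl arrays, and the test that bears on LA against SA is their own difference. In that comparison 8 of the 10 genes were called lower in LA, against 7.24% of all genes called lower, and 7 with the block, against 3.8%. The 2 not called were HLA-DOA and CIITA. The LA arrays lay below the SA arrays without overlap for 9 genes, against 27.3% of all genes, and the exception was HLA-DOA. HLA-DOA was low in both acid groups. By contrast, 7 other genes (HLA-DRB1, HLA-DQA1, HLA-DQB1, HLA-DPA1, HLA-DPB1, HLA-DMA and CD74) were called lower in LA than in SA in all 10 alternative settings that left out no single array. In direction the genes did not split: HLA-DRA, CIITA and HLA-DOA were also below 0 in this comparison in all 14 alternative settings, HLA-DOA at -1.52 to -0.25. The difference of HLA-DMA between LA and SA was -1.93 ± 0.27 (limma adjusted p = 0.00794).

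The 10 genes also shared their deviations within LA. There replicate 1 was below replicate 2 for 9 of the 10 genes, with a median difference of -0.48, and CIITA was the exception. In SA replicate 1 was above replicate 2 for all 10, with a median difference of 0.49, and in Ctrl for 7 of the 10, with a median of 0.04. These are not separate cases: in the deposited values the differences of a gene over the 3 groups sum to between -0.08 and 0.27, so the SA deviations largely mirror those of LA. The 10 genes are therefore not 10 separate observations of a culture, and the array that is low for 1 of them tends to be low for the others. The 5 genes outside the set whose pattern was most like its mean profile over the 6 arrays, among 2896 genes with group means that span at least 1, were HLA-DPB2 (Pearson r = 0.993), DAPK1 (0.991), ZNF296 (0.990), ZC4H2 (0.989) and HLA-DQA2 (0.988). These 6 arrays share their normalization and fall into 3 groups, so the values describe likeness in these arrays alone. DAPK1, a death-associated protein kinase, had 12.14 and 12.28 in LA, 13.47 and 13.23 in SA, and 13.61 and 13.78 in Ctrl cells.

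Among other class II genes and pseudogenes, the called differences had the same direction. Over all genes, 1.59% were called lower in LA against Ctrl (0.555% with the block), 8.55% in SA against Ctrl and 7.24% in LA against SA. An unadjusted p under 0.05 in SA against Ctrl was found for 6492 of all 21070 genes. Of 12 class II genes and pseudogenes listed here, 10 had a probe set and 8 were tested. Of the 8, 4 were called lower in LA than in Ctrl (2 with the block), 0 in SA against Ctrl (0 also at an unadjusted p under 0.05) and 4 lower in LA than in SA. The count against Ctrl was 1 without LA replicate 1 or Ctrl replicate 1 and 2 without Ctrl replicate 2, and that against SA was 2 without LA replicate 1. HLA-DQA2, a DQ-like alpha chain gene, had 9.40 and 9.89 in LA, 11.76 and 11.33 in SA, and 11.97 and 11.76 in Ctrl cells, with the LA arrays low. Its difference between LA and Ctrl was -2.22 ± 0.23 (limma adjusted p = 0.0107). HLA-DRB5, a second DR beta gene, differed by -1.44 ± 0.24 (limma adjusted p = 0.0373, with the block 0.0642), and the pseudogenes HLA-DPB2 and HLA-DRB9 by -1.44 ± 0.16 (limma adjusted p = 0.0133) and -1.05 ± 0.16 (limma adjusted p = 0.0327, with the block 0.111). Near-identical paralogs can share probe signal, so these 4 and their paralogs HLA-DRB1, HLA-DQA1 and HLA-DPB1 cannot be fully told apart here. HLA-DMB, the partner chain of HLA-DMA, had 9.06 and 10.00 in LA, 10.87 and 10.42 in SA, and 11.22 and 10.80 in Ctrl cells. Its difference between LA and Ctrl, -1.48 ± 0.35, was not called (limma adjusted p = 0.0859). HLA-DOB, the partner chain of HLA-DOA, was between 3.79 and 4.09 on all 6 arrays, near the median over every probe set, 3.77.

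Genes that lie beside and among the class II genes on chromosome 6 were examined next. Of 28 listed neighbours, 20 were tested. By limma 0 were called in LA against Ctrl (0 with the block, 5 at an unadjusted p under 0.05), where 3.2% of all genes were called in either direction. Of all 21070 genes, 4224 had an unadjusted p under 0.05 in LA against Ctrl. The differences of the 20 neighbours ran from -0.58 to 0.72 with a median of 0.12. TAP2, PSMB8, TAP1 and PSMB9, which serve class I presentation and lie between HLA-DOB and HLA-DMB, differed by -0.35, 0.43, -0.17 and 0.46. BRD2, a bromodomain gene between HLA-DMA and HLA-DOA, differed by 0.23. HLA-DMA at -2.35 and HLA-DOA at -4.86 stand on either side of it. In SA against Ctrl, 8.55% of all genes were called lower. Of the 20 neighbours, 3 were called lower there, among them KIFC1, a mitotic kinesin gene (-1.12, limma adjusted p = 0.0172). That count was 1 without SA replicate 1 or with the block, and 0 without SA replicate 2, Ctrl replicate 1 or Ctrl replicate 2. Around CIITA on chromosome 16, 6 of 9 listed neighbours were tested, and 0 were called in LA against Ctrl by limma (2 at an unadjusted p under 0.05), with differences from -1.09 to 0.56. The lowest was that of CLEC16A, a gene beside CIITA, which had 8.47 and 7.95 in LA, 8.53 and 8.50 in SA, and 9.06 and 9.54 in Ctrl cells. Both acid groups lay below Ctrl without overlap, and neither difference was called (-1.09 ± 0.24 in LA, limma adjusted p = 0.0739, and -0.78 ± 0.24 in SA, limma adjusted p = 0.0825). DEXI, which lies within the span of CIITA, had 9.24 and 9.77 in LA, 9.40 and 8.52 in SA, and 9.32 and 9.58 in Ctrl cells, with all groups overlapping. EMP2, a membrane protein gene on that list, had 13.03 and 13.23 in LA, 7.57 and 7.23 in SA, and 13.07 and 13.08 in Ctrl cells, so both SA arrays alone were low.

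**Figure D3:**
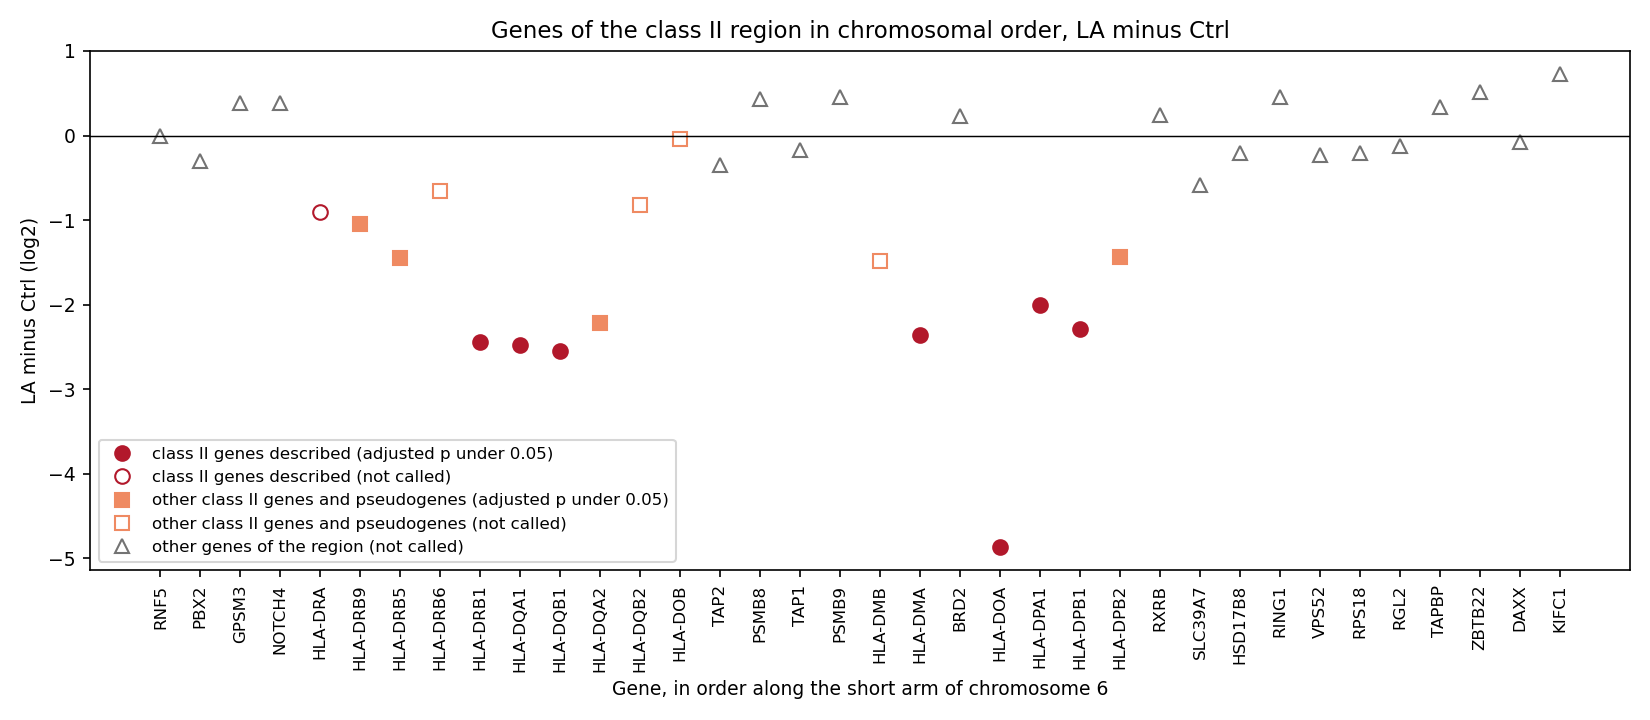
Difference between LA and Ctrl (vertical axis, log2 scale) for class II genes and their neighbours, placed in their order along chromosome 6 with equal spacing (horizontal axis, rank and not distance). Class II genes run from HLA-DOA at -4.86 to HLA-DOB at -0.04, while the neighbours, including BRD2 at 0.23 between HLA-DMA and HLA-DOA, stay between -0.58 and 0.72.

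The factors that bind the promoter module were measured on the same arrays. Of 8 listed, 7 were tested, and 0 were called in LA against Ctrl by limma (0 with the block), where 3.2% of all genes were called in either direction. RFX5, the DNA-binding subunit of the RFX complex, was between 16.16 and 16.55 on all 6 arrays, and its difference between LA and Ctrl was -0.20 (95% interval -0.58 to 0.17). The other RFX subunits differed by -0.55 (RFXANK, 95% interval -0.92 to -0.19) and 0.31 (RFXAP, 95% interval -0.52 to 1.14). NFYA, NFYB and NFYC, the subunits of NF-Y, differed by -0.50, 0.41 and 0.25, and CREB1, which binds the neighbouring X2 element, by 0.52. At an unadjusted p under 0.05 there were 4, with RFXANK and NFYA lower and NFYB and CREB1 higher. Of all 21070 genes, 4224 were under that level in either direction. NFYC had 11.65 and 11.68 in LA, 10.48 and 10.60 in SA, and 11.48 and 11.34 in Ctrl cells. It was lower in SA than in Ctrl (-0.87 ± 0.14, limma adjusted p = 0.0141, with the block 0.0668) and higher in LA than in SA (1.13 ± 0.14, limma adjusted p = 0.00519), where 8.7% of all genes were called higher. The call in SA against Ctrl was lost without SA replicate 1, Ctrl replicate 1 or Ctrl replicate 2, each of which left 0 factors called.

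Of 17 listed regulators of CIITA, 14 were tested, and 2 activators were called higher in LA than in Ctrl (1 with the block) and 0 lower, where 1.61% of all genes were called higher. The count was 1 without LA replicate 1, LA replicate 2 or Ctrl replicate 1. IRF1, an interferon-induced activator of a CIITA promoter, had 6.44 and 6.65 in LA, 5.70 and 5.39 in SA, and 4.78 and 4.84 in Ctrl cells, in the order Ctrl, SA, LA from low to high. The difference between LA and Ctrl was 1.73 ± 0.17 (limma adjusted p = 0.00779). IRF8, a B cell and myeloid interferon regulatory factor, had 7.60 and 7.67 in LA, 6.63 and 6.45 in SA, and 6.32 and 6.45 in Ctrl cells. Only its LA arrays stood apart, with a difference from Ctrl of 1.25 ± 0.14 (limma adjusted p = 0.0138, with the block 0.0504). PRDM1, the plasma cell repressor of CIITA, had 16.80 and 16.75 in LA, 17.16 and 17.13 in SA, and 16.52 and 16.57 in Ctrl cells. It was called higher in SA (0.60 ± 0.13, limma adjusted p = 0.0314, with the block 0.168) and not in LA (0.23 ± 0.13, limma adjusted p = 0.383), and LA and SA were not called different (-0.37 ± 0.13, limma adjusted p = 0.113). JAK2, a kinase of interferon gamma signalling, was higher in SA than in Ctrl (0.66 ± 0.13, limma adjusted p = 0.0244, with the block 0.136) and lower in LA than in SA (-1.04 ± 0.13, limma adjusted p = 0.00538). JAK1 was also lower in LA than in SA (-1.79 ± 0.34, limma adjusted p = 0.0201), with an uncalled 1.16 in SA against Ctrl. At an unadjusted p under 0.05 in LA against Ctrl, EBF1, IRF1 and IRF8 were higher and JAK2 lower (-0.38). Of all 21070 genes, 4224 were under that level. Over all genes, 6.23% were called higher and 8.55% lower in SA against Ctrl. In SA against Ctrl 4 regulators were called higher and 1 lower (1 and 0 with the block), and the total of 5 was 2 without SA replicate 1, 1 without SA replicate 2 or Ctrl replicate 1, and 0 without Ctrl replicate 2. EBF1, an early B cell factor, had 6.45 and 7.12 in LA, 7.24 and 6.87 in SA, and 5.69 and 5.30 in Ctrl cells. All 4 acid arrays of EBF1 were high, with a called difference in SA (1.56 ± 0.28, limma adjusted p = 0.0182) and an uncalled one in LA (1.29 ± 0.28, limma adjusted p = 0.0699). USF1, which binds an E box of a CIITA promoter, was lower in SA than in Ctrl (-0.87 ± 0.18, limma adjusted p = 0.0295, with the block 0.0865). IRF4, the plasma cell interferon regulatory factor, differed by -0.16 between LA and Ctrl (95% interval -0.51 to 0.20). The receptor chain genes IFNGR1 and IFNGR2 differed by 0.05 and 0.02 between LA and Ctrl, and by 0.72 and 0.12 between SA and Ctrl, none of them called. PAX5 and SPI1, B cell and myeloid factors, were between 4.08 and 4.93 and between 4.48 and 4.72 on the 6 arrays. The median over every probe set was 3.77.

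**Figure D4:**
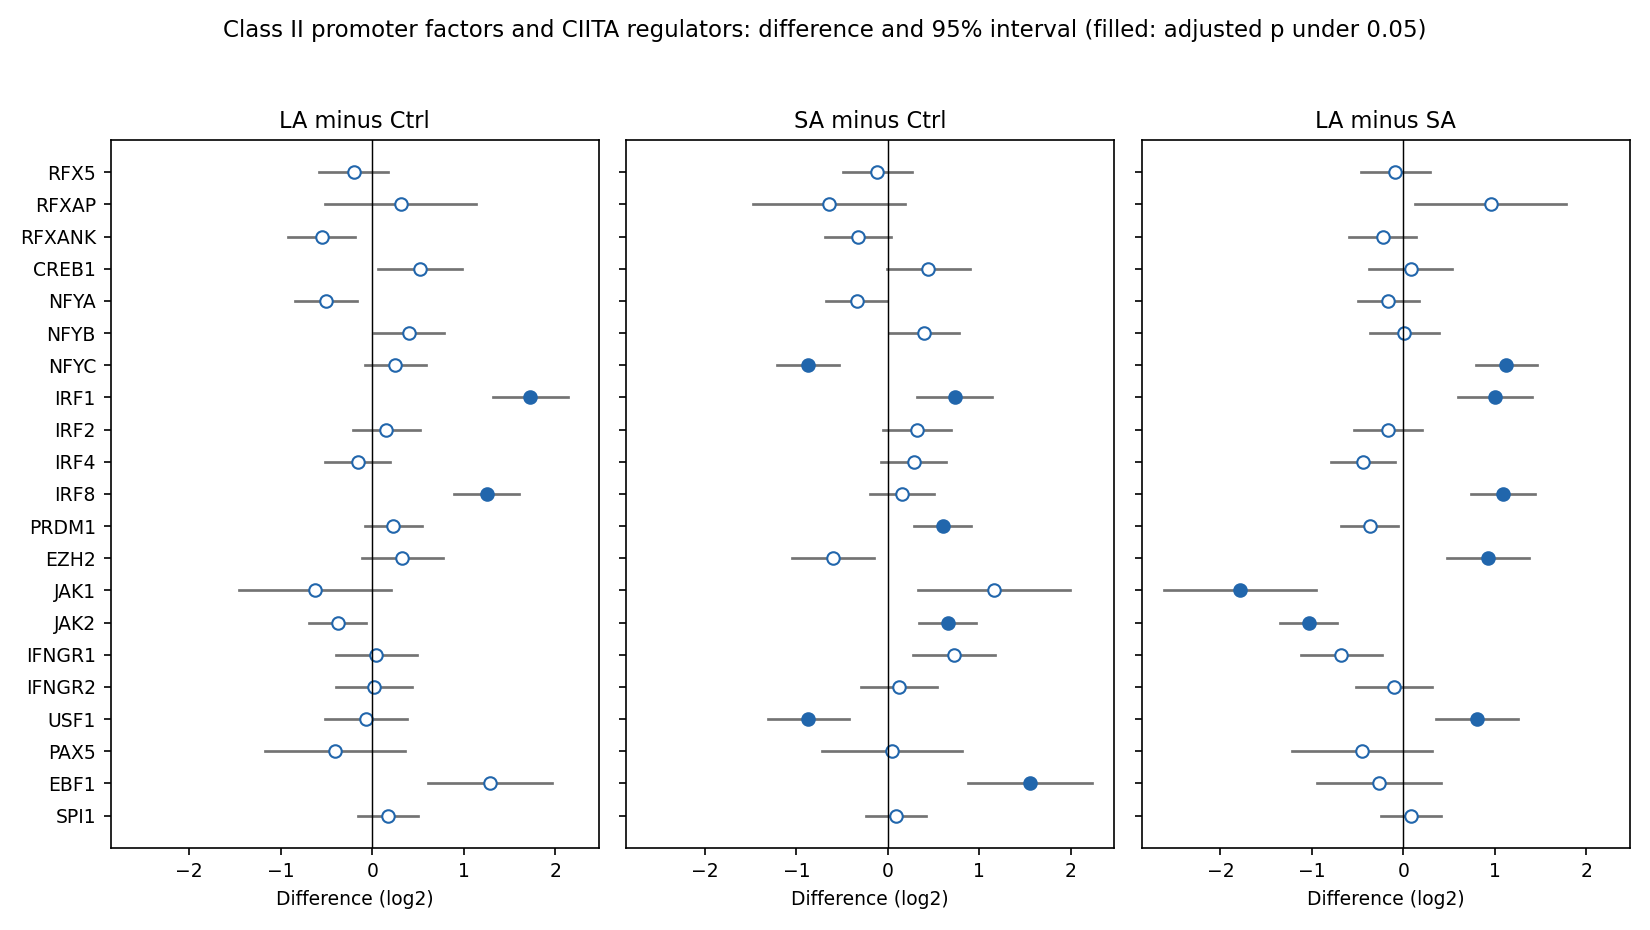
Differences on the log2 scale for LA minus Ctrl, SA minus Ctrl and LA minus SA of promoter factors and regulators of CIITA, with 95% intervals from limma. IRF1 at 1.73 and IRF8 at 1.25 stand above 0 in LA minus Ctrl, while RFX5 at -0.20 lies near 0.

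Proteases and traffic genes that act on class II molecules after synthesis were not called in LA cells. Of 20 listed, 16 were tested. By limma 0 were called in LA against Ctrl (0 with the block, 5 at an unadjusted p under 0.05), where 3.2% of all genes were called in either direction. Of all 21070 genes, 4224 had an unadjusted p under 0.05 in LA against Ctrl. The median difference of the 16 genes was -0.18. CTSD, an endosomal aspartic protease, had the lowest difference, -0.77 ± 0.17 (limma adjusted p = 0.0798), and SPPL2A, which cleaves the CD74 remnant, had the highest, 0.62 ± 0.17 (limma adjusted p = 0.118). In SA against Ctrl, 3 were called lower and 1 higher, where 6.23% of all genes were called higher, and the total of 4 was 1 without SA replicate 2 and 2 without Ctrl replicate 2. The share of all genes called lower in SA against Ctrl was 8.55%. CTSZ, a cathepsin gene, had 11.85 and 11.57 in LA, 9.46 and 9.49 in SA, and 11.58 and 11.71 in Ctrl cells, so that its SA arrays alone were low (-2.17 ± 0.15 against Ctrl, limma adjusted p = 0.00216). CTSC, LGMN and MARCHF8 differed by -1.23, -1.02 and 1.10 between SA and Ctrl; MARCHF8 is a ubiquitin ligase gene, and LGMN encodes the asparaginyl protease that starts invariant chain cleavage. The calls of LGMN and MARCHF8 were lost with the block (limma adjusted p = 0.0758 and 0.0570). Of the class I presentation genes, 18 were tested and 0 were called in LA against Ctrl (limma, 0 with the block, 2 at an unadjusted p under 0.05), and their median difference was -0.11. The class I chain genes HLA-B, HLA-C, HLA-E, HLA-F and HLA-G had uncalled differences of -0.52, -0.45, -0.62, -0.39 and -0.39, with both LA arrays below both Ctrl arrays in each. Among the 18 class I genes, 8 were lower in LA than in Ctrl without overlap and 2 were higher. Of all genes, 28.1% were lower without overlap in that comparison. In LA against SA, 4 class I genes were called lower and 2 higher, among them HLA-B (-0.96), HLA-G (-0.87) and HLA-F (-0.85) as lower, and with the block 0 remained called lower and 1 higher. Over all genes, 7.24% were called lower and 8.7% higher in LA against SA, and 3.8% lower with the block.

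CD74 and class II molecules meet other surface proteins. CD44, which pairs with CD74 as a signalling partner, had 9.06 and 9.55 in LA, 7.92 and 7.79 in SA, and 7.95 and 7.54 in Ctrl cells. It was higher in LA than in Ctrl by 1.56 ± 0.23 (limma adjusted p = 0.0265), and no gene of this list was called without LA replicate 2 or Ctrl replicate 2. Among 9 tested costimulation and adhesion genes, ICAM1, the ligand of the T cell integrin LFA-1, had 12.38 and 12.54 in LA, 12.85 and 12.79 in SA, and 14.15 and 14.07 in Ctrl cells. All 4 acid arrays of ICAM1 were low, with differences from Ctrl of -1.65 ± 0.14 in LA (limma adjusted p = 0.00640) and -1.29 ± 0.14 in SA (limma adjusted p = 0.00498). CD58, the ligand of CD2 on T cells, had 9.41 and 9.44 in LA, 14.46 and 13.49 in SA, and 11.04 and 11.71 in Ctrl cells. It was called higher in SA (2.60 ± 0.36, limma adjusted p = 0.00986) and missed the threshold in LA (-1.95 ± 0.36, limma adjusted p = 0.0503), and LA was below SA by a called difference (-4.55 ± 0.36, limma adjusted p = 0.00149).

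The labelled cell type was checked on marker lists. All 9 plasma cell markers had group means of at least 7.44 in every group, and their summed level was 130.3 to 130.7 in LA, 141.8 to 142.2 in SA and 137.0 to 137.4 in Ctrl cells. Of the 9, 1 was called lower and 1 higher in LA against Ctrl, where 1.59% of all genes were called lower and 1.61% higher. The part of these 9 markers in the class II result was not tested. SLAMF7, a plasma cell surface receptor, had 7.47 and 7.42 in LA, 16.66 and 16.87 in SA, and 14.71 and 14.48 in Ctrl cells, a difference larger than the drop of the summed level in LA. CD38, a surface ectoenzyme of plasma cells, had 19.05 and 19.14 in LA, 17.46 and 17.44 in SA, and 17.53 and 17.36 in Ctrl cells, so that its LA arrays were high. Of 9 monocyte and dendritic cell markers, which cells carry class II genes themselves, 8 had a mean below 5 in each group, and CD14 was between 3.58 and 3.86 on all 6 arrays. Their summed level was 38.9 to 39.4 in LA, 36.1 to 36.8 in SA and 37.5 in Ctrl cells. Only 4 of these 9 markers passed the filter and were tested. Of the 4, ITGAX alone was called (higher in LA than in Ctrl, 2.28 ± 0.25, limma adjusted p = 0.0119), where 1.61% of all genes were called higher. Of 7 mature B cell markers measured, 4 had a mean below 5 in each group, with summed levels of 42.4 to 43.8 in LA, 42.4 to 43.0 in SA and 40.2 to 42.0 in Ctrl cells. Among them BLK, a B cell kinase, was called higher in LA than in Ctrl (2.00 ± 0.22, limma adjusted p = 0.0115), and CD79A, a B cell receptor subunit, higher in SA than in Ctrl (2.22 ± 0.20, limma adjusted p = 0.00354). Of 7 T and NK cell markers, 6 had a mean below 5 in each group, with summed levels of 25.1 to 25.3 in LA, 24.2 to 24.6 in SA and 24.0 to 24.5 in Ctrl cells.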

How the data were processed

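Total RNA of LP-1 cells was amplified, labelled with biotin as single-stranded cDNA and hybridized to 6 arrays. The deposited values, taken to be log2, were produced by the authors through RMA (background correction, normalization between arrays and a summary of the probes) and the Transcriptome Analysis Console, per the submitters' processing notes. The log base, the parameters and the genome build were not given in the sources at hand.

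Of 135574 probe sets, 36176 had a single gene symbol, 1119 had several and 98279 had none, and 25516 of 25555 gene IDs matched the GRCh38.p14 gene table, used for symbols and gene order. The brightest probe set of each symbol was used. Groups were set against each other by limma 3.58.1 under R 4.3.3 (means over 6 arrays, lmFit and eBayes without a trend, two-sided moderated test, Benjamini-Hochberg over 21070 genes). Precision is limited by the number of arrays, since an exact permutation of 2 against 2 gives no p below 0.333. The procedure was tested on simulated data with known changes. The simulated arrays were independent, with no replicate term removed. That test therefore cannot show whether the p-values have the right size in the deposited values. The genes and lists, and the alternatives tried, were chosen with earlier results of these data known. Named were all 10 genes of the set, the promoter factors tested, up to 6 called genes of each other list and the 5 most alike profiles. By the same rule CIITA regulators and loading genes could be named whatever their call. Of these, IRF2, CTSL, CTSF, CTSV, AP1M1, AP2M1, RAB7A and MARCHF1 were left out of the results. A few neighbours, markers and class II genes outside that rule were named after their values were seen: BRD2, TAP1, TAP2, PSMB8, CD14, CLEC16A, DEXI, HLA-C and HLA-E.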

Additional observations from a re-analysis of the deposited data

Results flagged for a closer look

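For 45 of the 127 listed genes that were tested, the effect of long-term acid culture and that of short-term acid culture, each against Ctrl, differed from each other by limma's test of LA minus SA at an adjusted p under 0.05; 28 were lower in LA than in SA and 17 were higher, where 7.24% of all genes were called lower and 8.7% higher. With replicate number as a block 32 of the 45 were still called, and the 13 that were not are HLA-DRA, USF1, EZH2, CD63, LAMP1, HLA-B, HLA-F, HLA-G, PSMB9, ERAP1, SLC39A7, MIF and CR2. Over all 21070 genes, 801 were called lower and 1022 higher with the block. No explanation was weighed.

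Among the class II presentation genes, 8 differed, all lower in LA: HLA-DRB1 by -2.32, HLA-DQA1 by -2.29, HLA-DQB1 by -1.96, HLA-DMA by -1.93, HLA-DPB1 by -1.84, HLA-DPA1 by -1.65, CD74 by -1.64 and HLA-DRA by -0.87. Other class II genes and pseudogenes differed the same way, with -1.91 for HLA-DQA2, -1.19 for HLA-DRB5, -1.17 for HLA-DRB9 and -1.11 for HLA-DPB2.

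Among promoter factors and regulators of CIITA, the difference between LA and SA was 1.13 for NFYC, 1.0002 for IRF1, 1.09 for IRF8, 0.80 for USF1 and 0.93 for EZH2, and it was -1.79 for JAK1 and -1.04 for JAK2. Among loading and turnover genes it was 2.23 for CTSZ, 1.39 for CTSC, -1.48 for CTSB, -1.11 for MARCHF8, -0.60 for CD63 and -0.59 for LAMP1.

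Among class I genes and neighbours on the chromosome, the difference between LA and SA was 1.33 for ERAP2, 0.96 for PSMB9, -0.96 for HLA-B, -0.87 for HLA-G, -0.85 for HLA-F, -0.85 for ERAP1, -0.67 for SLC39A7, 1.84 for KIFC1 and 5.73 for EMP2. Of CD74 partners and adhesion genes, CD44 differed by 1.45, DDT by 1.46, MIF by 0.96 and CD58 by -4.55. Of the cell type markers, SLAMF7 differed by -9.32, TNFRSF17 by -2.70, CD38 by 1.64, CD79A by -2.04, CR2 by -0.64, BLK by 2.72 and ITGAX by 2.15.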

How the results depend on the processing

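The number of class II presentation genes called lower in LA than in Ctrl was 9, and 8 to 10 under every alternative other than leave-one-out except 1. With every probe set past the filter tested it was 5, because more probe sets enter the adjustment, and 77 of all 67787 were called lower. Leaving out 1 array gave 7 to 8. In SA against Ctrl, HLA-DOA was the gene called in all 14 alternative settings, so the count was 1 in each. In LA against SA the count was 8, with 7 to 9 over the alternatives and 7 to 8 without 1 array. With replicate number as a block the counts were 8 for LA against Ctrl, 1 for SA against Ctrl and 7 for LA against SA. Deviations of same-numbered arrays had correlations over genes of -0.41 (LA and SA), -0.47 (LA and Ctrl) and -0.57 (SA and Ctrl). Of the spread within groups, 1.18% (of the sum of squares) lay between replicate numbers, and 33.3% is the share with nothing removed, so SEs and p-values without the block tend to be too small. With 3 groups and no replicate term left, such correlations come out negative by construction and do not show whether the numbers pair the cultures.

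The values that changed sign were all uncalled differences between SA and Ctrl. Under cyclic loess HLA-DRB1 was at 0.0155 and HLA-DRA at 0.0881. Without 1 array in turn, HLA-DQA1 ran from -0.36 to 0.0060 (above 0 without SA replicate 2), HLA-DRB1 from -0.45 to 0.22 (above 0 without SA replicate 2 or Ctrl replicate 2), HLA-DRA from -0.15 to 0.0841 (above 0 without SA replicate 2 or Ctrl replicate 1) and CD74 from -0.0330 to 0.28 (below 0 without SA replicate 1). The cause was not tested. Low signal limits HLA-DOB, at 3.79 to 4.09, and HLA-DOA in acid culture, at 4.05 to 6.04. The median over every probe set was 3.77.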
